A study of Homo sapiens with 9 samples.

Results

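Small nucleolar RNA (snoRNA) host genes are genes whose introns carry snoRNAs. The 10 noncoding ones listed here were GAS5, SNHG1, SNHG5, SNHG6, SNHG7, SNHG8, SNHG12, SNHG15, SNHG16 and ZFAS1, chosen by name, and their rows were found by Ensembl identifier. Of the 10, 9 were among the 24344 genes of the count table and all 9 passed the filter on low counts. SNHG6 was not analysed here.

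Libraries were unstranded and sequenced paired-end from MDA-MB-231 cells, a human line established from a breast adenocarcinoma. Cells were given Compound Kushen Injection (CKI), which combines extracts of the herbs Kushen and Baituling, or Kushen injection or Baituling injection alone, for 48 h, with 3 libraries per treatment described as biological replicates. CKI was given at 2 mg/mL, and each single-herb injection was matched to its proportion in that dose. All 9 libraries thus come from 1 cell line and all were treated. Untreated libraries were not analysed here, so every difference below is between injections and none is a change from untreated cells.

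When a host transcript is spliced, the excised introns are trimmed into snoRNAs. Box C/D snoRNAs guide methylation of ribosomal RNA and box H/ACA snoRNAs guide pseudouridylation. The spliced noncoding RNA that remains is often a substrate of nonsense-mediated decay, because ribosomes read short open reading frames in it. Many host genes start transcription at a 5′ terminal oligopyrimidine (TOP) stretch, as ribosomal protein genes do, and the translation of TOP mRNAs depends on mTOR signalling.

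The hosts differ in what they carry. In RefSeq the 9 measured hosts hold 36 small RNA genes, of which 27 are box C/D and 8 box H/ACA snoRNAs by name. GAS5 carries 11 and SNHG1 carries 9, nearly all box C/D, whereas SNHG7, SNHG8 and SNHG15 carry H/ACA snoRNAs. SNHG12 carries 4, of both families. Only 5 of the 36 had a row in the table, with 0 to 24 counts per library, so the hosts were measured here through their own RNA and the snoRNAs were too thinly counted to compare.

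RefSeq promoters were found for 8 of the 9 measured hosts. The windows below run from 60 bases before the annotated start to 50 bases after, and they are shown because the TOP stretch sits at the start. Capitals mark a C followed by at least 4 C or T bases, beginning within 5 bases of the annotated start, and the letters TATAA, searched between 40 and 15 bases before it. Both were searched on the strand of the gene. The coordinates (GRCh38.p14) are chr20:49278582-49278691 on the plus strand for ZFAS1, chr6:85678684-85678793 on the minus strand for SNHG5, chr9:136728135-136728244 on the minus strand for SNHG7, chr4:118278702-118278811 on the plus strand for SNHG8, chr1:28581824-28581933 on the minus strand for SNHG12 and chr17:76557704-76557813 on the plus strand for SNHG16.
ZFAS1: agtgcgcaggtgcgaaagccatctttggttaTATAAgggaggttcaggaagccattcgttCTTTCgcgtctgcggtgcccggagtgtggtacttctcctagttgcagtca
SNHG5: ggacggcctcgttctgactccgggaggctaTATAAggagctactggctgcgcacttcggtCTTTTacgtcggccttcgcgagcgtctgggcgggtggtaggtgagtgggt
SNHG7: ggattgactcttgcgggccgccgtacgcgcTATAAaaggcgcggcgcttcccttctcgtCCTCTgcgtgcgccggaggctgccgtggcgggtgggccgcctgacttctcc
SNHG8: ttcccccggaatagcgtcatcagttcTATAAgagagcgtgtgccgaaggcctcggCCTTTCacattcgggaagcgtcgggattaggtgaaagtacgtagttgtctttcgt
SNHG12: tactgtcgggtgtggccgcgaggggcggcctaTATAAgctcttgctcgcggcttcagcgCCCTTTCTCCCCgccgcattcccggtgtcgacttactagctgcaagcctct
SNHG16: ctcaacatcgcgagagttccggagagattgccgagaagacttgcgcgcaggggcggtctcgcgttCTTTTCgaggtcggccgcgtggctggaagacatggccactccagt

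The pyrimidine run was present in these 6 of 8 promoters, against 21.1% of 27305 promoters in the RefSeq table. It was also found in 52 of 66 ribosomal protein promoters (78.8%). TATAA was found in 5 of the 8, all of those printed other than SNHG16, against 4.37% of all promoters and 10.6% of ribosomal protein promoters. GAS5 and SNHG1 had neither at the positions searched. The windows of both hold a C followed by C or T bases farther from the annotated start, which the search did not count. Only the first listed start of each gene was searched, so this does not describe any other start of these genes. The letters CACGTG, the same on both strands, were looked for in the whole 300 bases of each promoter and occurred in SNHG7 alone among the 8, against 7.43% of all promoters. The hosts had been listed for their TOP-type promoters, so the share with the run describes the choice. A match in letters is not a mapped start site.

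The libraries held 20144628 to 23782071 counts, and the hosts 285 to 10668 counts per library. Levels are CPM (counts scaled to a common library size after TMM normalization) and are compared between treatments only, since the length counted for each gene is not given in the sources used here. The mesenchymal markers VIM, CD44, EGFR, FN1, AXL and MSN were between 228 and 2116 CPM in every library, while the luminal receptor genes ESR1 and PGR had at most 4 counts. FOXA1, PTPRC and ALB had at most 23 counts and CDH1 11 to 51. Of the other listed luminal or epithelial markers, GATA3 was at 7.69 to 24.8 CPM and EPCAM at 6.93 to 13.8, and KRT19 was high, at 653 to 1671 CPM. Composition also differed between treatments. A list of 13 genes for RNAs usually made without a poly(A) tail held histones, RN7SK, RMRP and U3 snoRNA genes. Its summed level was 587 to 603 CPM under CKI, 247 to 261 under Kushen and 90.5 to 102 under Baituling. Whether these RNAs carried a tail here was not measured. The members did not all follow the sum: of 10 tested, 9 were higher in CKI than in Kushen, 7 higher and 0 lower in CKI than in Baituling, and 6 higher and 3 lower in Kushen than in Baituling. The 3 were the histone gene HIST1H1E (-1.02) and the U3 genes SNORD3A (-3.24) and SNORD3B-2 (-3.28), and in CKI minus Baituling the U3 genes were at -0.03 and -0.44. Of all genes, 19.6%, 39.1% and 35.6% were higher in CKI minus Kushen, CKI minus Baituling and Kushen minus Baituling, and 20.2%, 37% and 36.1% lower. The summed level of 7 nuclear-retained RNAs, NEAT1 and MALAT1 among them, was 1103 to 1885, 1077 to 2056 and 183 to 207 CPM. Their part in the host gene results was not tested. In bulk RNA, fewer cells with a transcript and less of it per cell cannot be told apart.

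As a group the noncoding hosts were highest under Baituling. The summed level of the 9 was 1107 to 1214 CPM in the Baituling libraries, 703 to 769 in Kushen and 621 to 633 in CKI, with no overlap between the treatments. The sum leans on the most abundant host, SNHG5, whose means were 482, 310 and 230 CPM in the same order. By edgeR, 4 of the 9 genes were lower under CKI than under both single-herb injections, a position held by 13.7% of all 14195 genes tested. Another 3 were lower than under Baituling without passing the test against Kushen (20.1% of all genes). SNHG15 was above Kushen and below Baituling (3.23%), and SNHG12 passed no test of CKI (17.3%). Over all genes, 39.8% were called in CKI against Kushen and 76.1% in CKI against Baituling.

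**Figure D1:**
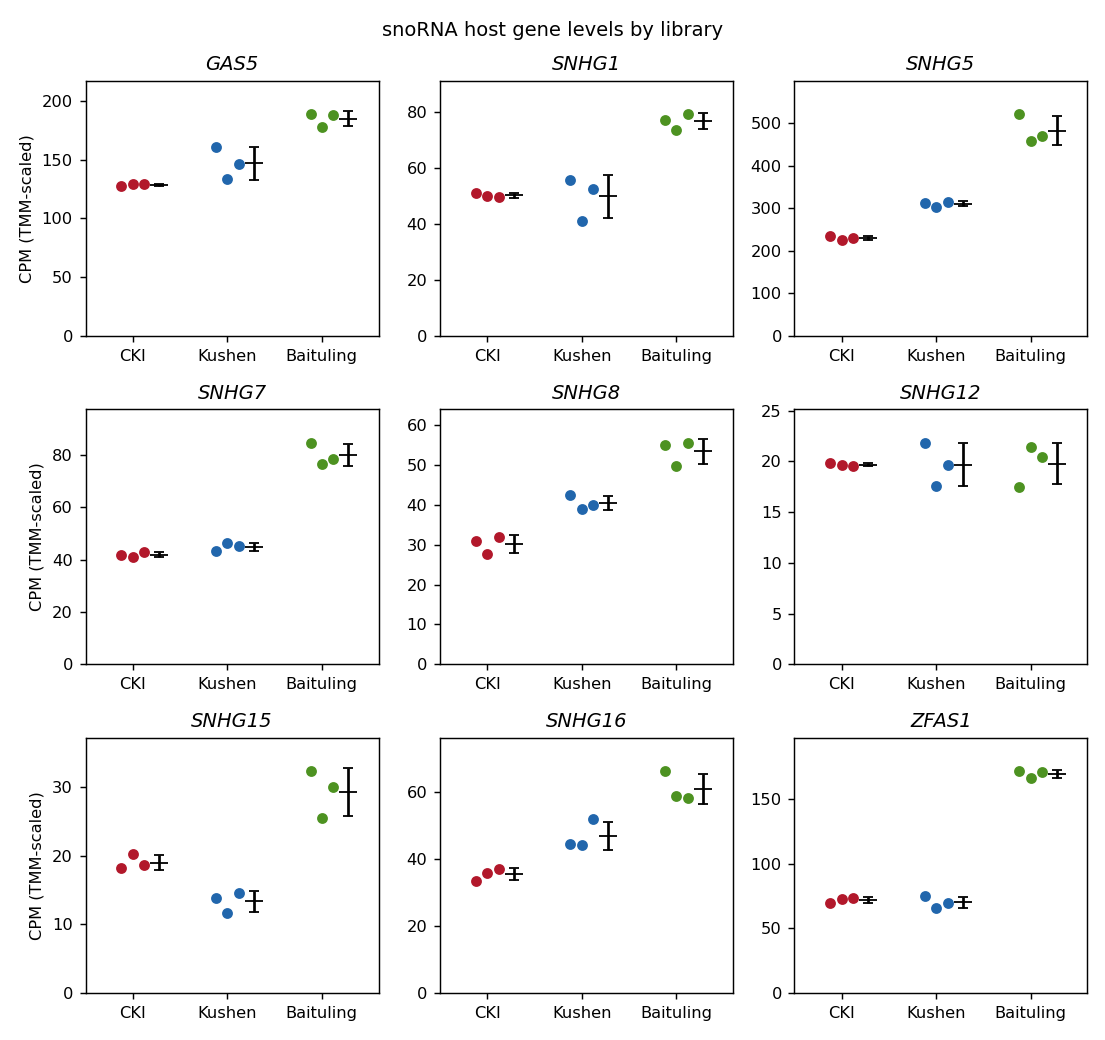
Level of each measured snoRNA host gene in CPM (TMM-scaled, linear axis from 0) in the 3 CKI, 3 Kushen and 3 Baituling libraries. Each point is a library, and the bar beside it is the group mean with its SD (n = 3). The Baituling points lie above all others in 8 panels, and the 3 treatments overlap for SNHG12.

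ZFAS1 (ENSG00000177410, GRCh37 chr20:47894715-47916137, plus strand) showed the widest gap to Baituling. Its level was 69.4, 73.2 and 73.9 CPM in the CKI libraries, 74.9, 66.1 and 69.9 in Kushen, and 172, 167 and 171 in Baituling. CKI and Kushen libraries overlapped, and every Baituling library was far above them. The fold of Baituling over CKI was 2.35 and over Kushen 2.41. On the log2 scale CKI minus Baituling was -1.23 ± 0.048 (SE, edgeR adjusted p 1.65e-14), and Kushen minus Baituling was -1.27 ± 0.049 (adjusted p 1.78e-14). CKI minus Kushen was 0.04, with a 95% interval of -0.07 to 0.14 (edgeR adjusted p 0.582), and turned to -0.0068 without Kushen replicate 2. With library totals it was 0.11 and did not pass the test.

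ZFAS1 carries 3 box C/D snoRNAs of the SNORD12 family, which are shown because they are what this host delivers to the ribosome assembly pathway. They lie in GRCh37 on the plus strand at chr20:47895477-47895565 (SNORD12C), chr20:47896856-47896946 (SNORD12B) and chr20:47897220-47897309 (SNORD12). Capitals mark the C box letters TGATGA and the D box letters CTGA.
SNORD12C: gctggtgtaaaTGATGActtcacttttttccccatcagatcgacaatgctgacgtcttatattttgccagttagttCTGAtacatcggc
SNORD12B: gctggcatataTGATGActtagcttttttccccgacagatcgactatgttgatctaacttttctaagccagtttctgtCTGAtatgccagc
SNORD12: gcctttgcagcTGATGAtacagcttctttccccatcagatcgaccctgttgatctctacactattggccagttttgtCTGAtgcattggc

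The 3 sequences are 89, 91 and 90 bases long, and the longest run present in all of them, cagatcgac, is 9 bases. Their rows in the table held 1 to 5 counts per library in each treatment, against 1576 to 3523 counts for the host. The difference in ZFAS1 between Baituling and the other injections therefore could not be followed into its snoRNAs at this depth.

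SNHG5 (ENSG00000203875, chr6:86360209-86388650, minus strand) hosts the SNORD50 pair of box C/D snoRNAs. Its levels were 235, 224 and 231 CPM in CKI, 312, 304 and 316 in Kushen, and 520, 457 and 469 in Baituling. The 3 treatments formed separate steps, CKI lowest and Baituling highest. The fold of Kushen over CKI was 1.35, of Baituling over Kushen 1.55 and of Baituling over CKI 2.10. In edgeR the log2 difference was -0.43 ± 0.047 for CKI minus Kushen (adjusted p 9.46e-07), -1.07 ± 0.047 for CKI minus Baituling (1.07e-13) and -0.64 ± 0.047 for Kushen minus Baituling (3.26e-10). With library totals the last was -0.42 and still called.

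SNHG8 and SNHG16 showed the same steps as SNHG5. SNHG8 (ENSG00000269893, chr4:119199858-119206471, plus strand), host of the H/ACA snoRNA SNORA24, was at 30.9, 27.6 and 31.9 CPM in CKI, 42.4, 38.9 and 40.01 in Kushen, and 54.9, 49.7 and 55.5 in Baituling. No libraries of different treatments overlapped. SNHG8 shares exon sequence with the opposite-strand gene PRSS12, described below, and unstranded reads of the overlap cannot be told apart. The log2 differences of SNHG8 were -0.42 ± 0.064 for CKI minus Kushen (edgeR adjusted p 3.89e-05) and -0.82 ± 0.064 for CKI minus Baituling (5.58e-10). Kushen minus Baituling was -0.40 ± 0.063 (1.15e-05). SNHG16 (ENSG00000163597, chr17:74553809-74667067, plus strand), which carries the SNORD1 box C/D snoRNAs, was at 33.5, 35.7 and 36.9 CPM in CKI, 44.5, 44.1 and 51.7 in Kushen, and 66.1, 58.6 and 58.0 in Baituling. Again the treatments did not overlap. The log2 differences were -0.40 ± 0.068 (CKI minus Kushen, edgeR adjusted p 0.000122), -0.79 ± 0.068 (CKI minus Baituling, 2.86e-09) and -0.38 ± 0.067 (Kushen minus Baituling, 4.06e-05). With library totals the CKI minus Baituling differences were -0.54 for SNHG8 and -0.50 for SNHG16 and the Kushen minus Baituling differences -0.19 and -0.17, all still called by edgeR.

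GAS5 (ENSG00000234741, chr1:173827697-173838020, minus strand) is known for accumulating in growth-arrested cells, where slow translation spares its RNA from decay. It was measured at 127, 129 and 129 CPM in CKI, 161, 133 and 146 in Kushen, and 189, 178 and 188 in Baituling. The CKI libraries were the lowest and nearly equal, and Kushen replicate 2 came close to them without overlap. CKI minus Baituling was -0.53 ± 0.054 on the log2 scale (edgeR adjusted p 3.53e-08). The other differences were -0.19 ± 0.054 for CKI minus Kushen (0.00798) and -0.33 ± 0.054 for Kushen minus Baituling (1.69e-05). All 3 depended on scaling. With library totals in place of TMM, CKI minus Baituling was -0.24 and still called (edgeR adjusted p 0.000603), while CKI minus Kushen (-0.12, 0.0936) and Kushen minus Baituling (-0.12, 0.0554) were not.

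SNHG1 and SNHG7 were higher under Baituling, and their difference between CKI and Kushen did not pass the test. SNHG1 (ENSG00000255717, chr11:62619450-62623425, minus strand), the host of SNORD22 and SNORD25 to SNORD31, was at 51.0, 49.96 and 49.5 CPM in CKI, 55.7, 41.2 and 52.5 in Kushen, and 77.2, 73.6 and 79.1 in Baituling. The Kushen libraries spread on both sides of CKI, and all Baituling libraries were above. CKI minus Baituling was -0.61 ± 0.076 (edgeR adjusted p 4.63e-07) and Kushen minus Baituling -0.62 ± 0.076 (4.53e-07). With library totals they were -0.32 and -0.41, both still called. CKI minus Kushen was 0.01, with an interval of -0.15 to 0.17 (edgeR adjusted p 0.924), and its sign turned with DESeq2 (-0.0042) and without Kushen replicate 2 (-0.11).

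SNHG7 (ENSG00000233016, chr9:139615818-139622636, minus strand) carries the H/ACA snoRNAs SNORA17A and SNORA17B. The CKI libraries were at 41.9, 41.1 and 42.8 CPM, the Kushen libraries at 43.4, 46.2 and 45.1, and the Baituling libraries at 84.7, 76.7 and 78.7. CKI lay just under Kushen without overlap, and Baituling stood well above both. The difference from Baituling was -0.93 ± 0.052 for CKI (edgeR adjusted p 3.24e-12) and -0.83 ± 0.052 for Kushen (2.42e-11). CKI minus Kushen was -0.10 with an interval of -0.21 to 0.01 and did not pass the test (edgeR adjusted p 0.148), and was -0.02 with library totals.

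SNHG15 (ENSG00000232956, chr7:45022618-45026560, minus strand), host of the H/ACA snoRNA SNORA9, was the host gene that was higher under CKI than under Kushen. Its levels were 18.2, 20.3 and 18.6 CPM in CKI, 13.8, 11.7 and 14.5 in Kushen, and 32.3, 25.6 and 30.0 in Baituling. Kushen was lowest, CKI intermediate and Baituling highest, with no overlap. CKI minus Kushen was 0.51 ± 0.094 on the log2 scale (edgeR adjusted p 0.000269), CKI minus Baituling was -0.63 ± 0.088 (2.57e-06) and Kushen minus Baituling was -1.14 ± 0.093 (1.42e-09). The fold of Baituling over Kushen was 2.20. With library totals CKI minus Baituling was -0.34 and still called.

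SNHG12 (ENSG00000197989, chr1:28905050-28909644, minus strand), which carries 3 H/ACA snoRNAs and SNORD99, was the exception. It was at 19.9, 19.7 and 19.6 CPM in CKI, 21.8, 17.6 and 19.7 in Kushen, and 17.5, 21.4 and 20.5 in Baituling. The 3 treatments overlapped fully, and the CKI libraries sat inside the range of both others. Its log2 difference was near 0 in each contrast, with 95% intervals of -0.17 to 0.17 for CKI minus Kushen, -0.18 to 0.18 for CKI minus Baituling and -0.18 to 0.18 for Kushen minus Baituling (edgeR adjusted p 0.997, 0.973 and 0.977). With library totals SNHG12 was instead called higher than in Baituling, by 0.28 in CKI (edgeR adjusted p 0.00785) and 0.21 in Kushen (0.0453). Under that scaling the median of all genes moved by 0.29 and 0.21 in the same contrasts, and by 0.08 in CKI minus Kushen.

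**Figure D2:**
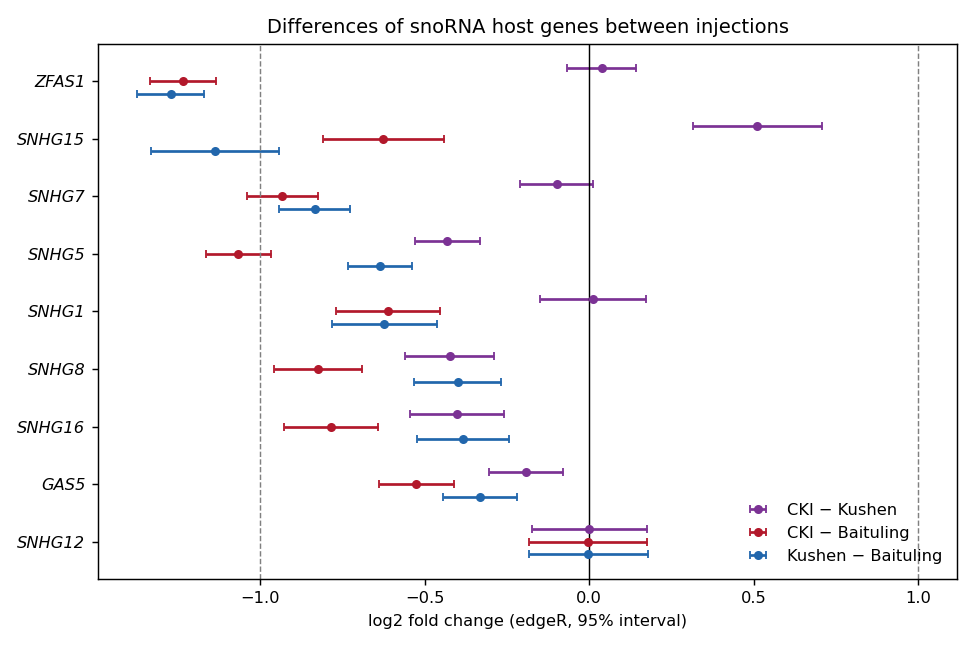
Log2 fold change of each host gene in the 3 contrasts, with points for the edgeR estimate on the TMM scale and bars for its 95% interval (n = 3 libraries per treatment). Dashed lines mark a log2 change of 1 in either direction. Both contrasts with Baituling lie left of 0 for every gene other than SNHG12, and SNHG15 alone lies right of 0 in CKI minus Kushen with an interval clear of it.

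For CKI against Kushen, which asks what Baituling adds inside the combined injection, 5 of the 9 hosts had an adjusted p under 0.05 in edgeR, beside 39.8% of all 14195 genes tested. SNHG15 was higher in CKI (19.6% of all genes were) and GAS5, SNHG5, SNHG8 and SNHG16 were lower (20.2% of all genes). No host passed a log2 fold change of 1 in edgeR or DESeq2, with or without adjustment of p, and 1.9% of all genes did in edgeR, 1.7% higher and 0.197% lower. The libraries of the treatments did not overlap for 6 of the 9, beside 49.5% of all genes. The median log2 difference of the 9 was -0.10, beside 0.01 for all genes.

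For CKI against Baituling, 8 of 9 hosts were lower in CKI and none was higher, in a contrast where edgeR called 76.1% of all genes, 39.1% higher and 37% lower. ZFAS1 and SNHG5 also passed a log2 change of 1, as 19.1% of all genes did in either direction and 7.91% in the lower direction. Libraries did not overlap for 8 of 9 hosts and for 78.3% of all genes. The median of the hosts was -0.79 and that of all genes 0.03. Since most genes were called here, the number of called hosts is near the background. All 8 were in 1 direction. With library totals 8 were lower and SNHG12 was higher.

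Kushen against Baituling gave a like count, with 8 of 9 hosts lower in Kushen and none higher, in a contrast with 71.6% of all genes called and 36.1% lower. ZFAS1 and SNHG15 passed a log2 change of 1, beside 15.2% of all genes in either direction, 8.5% higher and 6.73% lower. The libraries did not overlap for 8 of 9, beside 73.1% of all genes, and the median of the hosts was -0.62 against 0.02 for all genes. With library totals 7 were lower and SNHG12 was higher. This contrast and CKI against Baituling share the Baituling libraries, so their like counts are not independent.

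**Figure D3:**
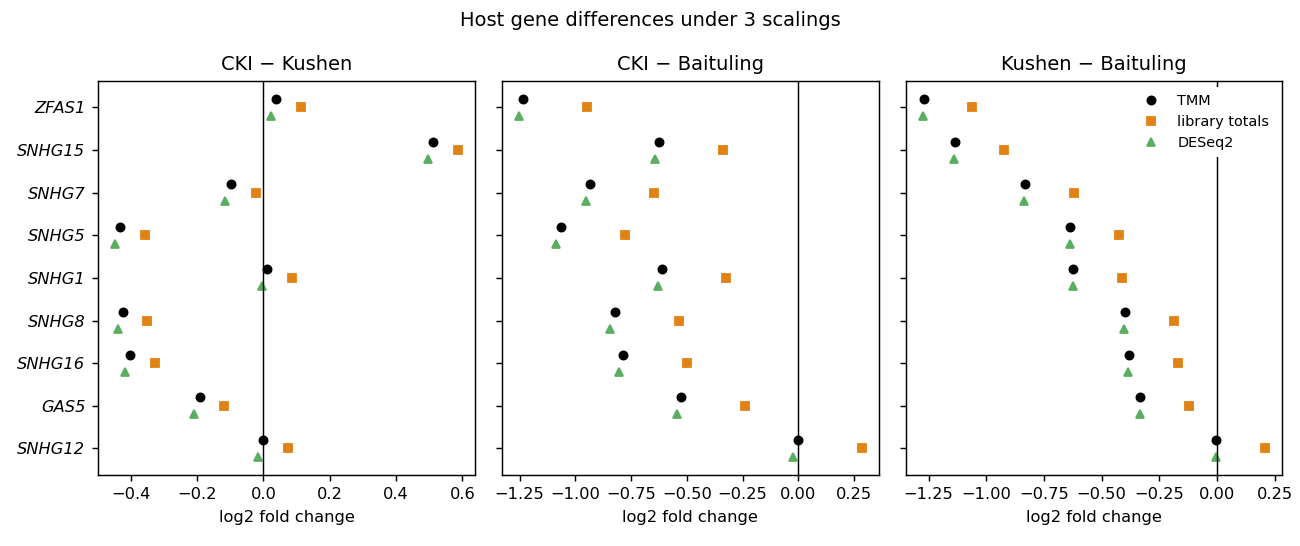
Log2 fold change of each host gene in the 3 contrasts with TMM scaling (black circles), library totals (orange squares) and DESeq2 (green triangles). Library totals shift every gene to the right, by 0.08, 0.29 and 0.21 at the median of all genes from left to right panel, which moves SNHG12 to the right of 0 and leaves the other hosts on their side of 0 in both Baituling panels.

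Protein-coding host genes carry snoRNAs as well, and 25 of the 38 listed are ribosomal protein genes. They were lower under CKI than under Baituling in 35 of 38 and higher in 2 (RPL17 and EIF4A1), with a median log2 difference of -0.86. For Kushen minus Baituling 34 were lower and 2 higher, with a median of -0.60. For CKI minus Kushen 32 were lower and 1, the translation helicase gene EIF4A1, was higher, with a median of -0.26. The shares of all genes lower and higher were 37% and 39.1%, 36.1% and 35.6%, and 20.2% and 19.6% in the order given. The coding hosts thus had medians close to those of the noncoding hosts in both Baituling contrasts. Against Kushen, 32 of 38 were lower, where 4 of 9 noncoding hosts were.

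The largest differences among coding hosts were in ribosomal protein genes. RPL10 was at 407, 416 and 434 CPM in CKI, 541, 559 and 570 in Kushen, and 1916, 1760 and 1781 in Baituling, with CKI minus Baituling at -2.12 ± 0.04 (SE). RPL3 (-1.62 ± 0.04), RPSA (-1.52 ± 0.05) and RPS2 (-1.50 ± 0.05) followed, all called by edgeR. Over all 83 ribosomal protein genes tested, 77 were lower and 3 higher in CKI than in Baituling (median -0.88), 77 lower and 3 higher in Kushen than in Baituling (-0.65), and 70 lower and 0 higher in CKI than in Kushen (-0.24). Among all genes tested, 37% were lower and 39.1% higher, 36.1% and 35.6%, and 20.2% and 19.6% in the same contrasts. Ribosomal protein genes have many processed copies in the genome, and how reads that fit several genes were counted is not given in the sources used here.

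The other noncoding hosts moved less uniformly. Of 19 listed, 14 were in the table and 12 were tested. CKI minus Baituling gave 3 higher and 6 lower, beside 39.1% and 37% of all genes, with a median of -0.16. With library totals it gave 6 higher and 3 lower. Kushen minus Baituling gave 2 higher and 7 lower, beside 35.6% and 36.1% of all genes, with a median of -0.66. CKI minus Kushen gave 3 higher and 2 lower (6 and 2 with library totals), beside 19.6% and 20.2% of all genes. Its median of 0.30 had the opposite sign to that of the 9 hosts.

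Among these, SNHG32 and SNHG29 had the pattern of SNHG5. SNHG32 was at 106, 108 and 111 CPM in CKI, 128, 122 and 127 in Kushen, and 392, 372 and 374 in Baituling, a CKI minus Baituling difference of -1.81 ± 0.04 that edgeR called. SNHG29 was at 121, 120 and 121 CPM in CKI, 144, 145 and 145 in Kushen, and 326, 312 and 310 in Baituling (-1.39 ± 0.04). Both were at their lowest in CKI and far higher in Baituling, without overlap. SNHG25 was lower in Kushen than in Baituling (-1.22 ± 0.27) and SNHG20 higher in CKI than in Baituling (1.08 ± 0.28), both at low levels, with SNHG25 at 0.533 to 2.93 CPM and SNHG20 at 0.877 to 3.47 CPM.

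**Figure D4:**
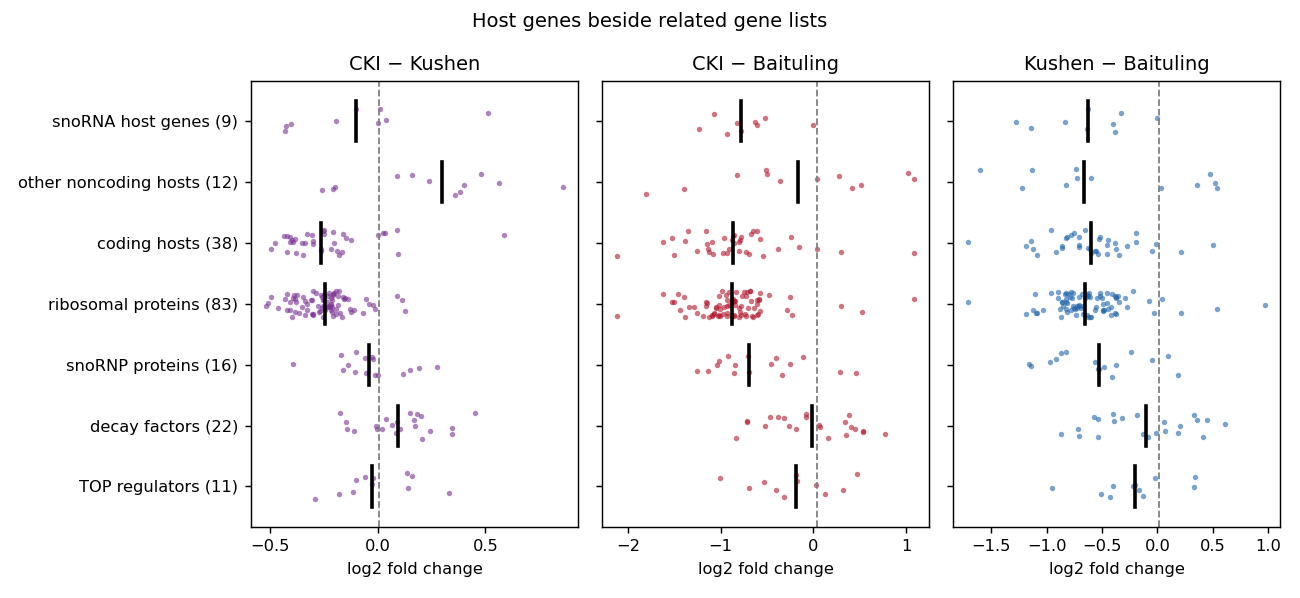
Log2 fold change of every tested gene of 7 lists in the 3 contrasts (points, jittered vertically, with the number tested in brackets), with a black bar at the list median and a dashed line at the median of all genes tested. The host genes, coding hosts, ribosomal protein genes and snoRNP protein genes lie mostly left of the dashed line in both Baituling panels, while the decay factors spread on both sides.

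The genes for proteins that assemble on snoRNAs were also mostly highest under Baituling. Of 16 tested, 14 were lower and 2 higher in CKI than in Baituling, with a median of -0.70 (10 lower and 3 higher with library totals). Kushen minus Baituling gave 13 lower and 1 higher with a median of -0.53 (11 and 3 with library totals). FBL, the methyltransferase of box C/D particles, was at 109, 115 and 115 CPM in CKI, 118, 124 and 122 in Kushen, and 287, 264 and 259 in Baituling, a CKI minus Baituling difference of -1.26 ± 0.05. NOP56, a core C/D protein and itself a host gene, was lower in Kushen than in Baituling by -1.14 ± 0.05. NHP2, a core H/ACA protein, differed by -1.04 ± 0.05 and PIH1D1, a factor of snoRNP assembly, by -1.02 ± 0.05 in CKI minus Baituling. CKI and Kushen differed less, with 4 lower, 2 higher and 10 not passing the test, and a median of -0.04 (1 lower and 3 higher with library totals). In these 3 contrasts 37%, 36.1% and 20.2% of all genes were lower, and 39.1%, 35.6% and 19.6% higher.

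Factors of nonsense-mediated and general RNA decay, a process that acts on the spliced host RNAs, were called in both directions in both Baituling contrasts and mostly higher in CKI against Kushen. Of 22 tested, 9 were higher and 9 lower in CKI than in Baituling (13 and 6 with library totals), with a median of -0.01. Kushen minus Baituling gave 7 higher and 11 lower (10 and 8 with library totals) and a median of -0.11. CKI minus Kushen gave 10 higher and 2 lower (12 and 0 with library totals) and a median of 0.10. Beside these, the shares of all genes higher and lower were 39.1% and 37%, 35.6% and 36.1%, and 19.6% and 20.2% in the order given. The counts of decay factors in CKI minus Baituling are thus near the background. SMG5, which recruits decay enzymes to UPF1, was at 191, 202 and 190 CPM in CKI, 172, 173 and 175 in Kushen, and 115, 112 and 114 in Baituling, the reverse order of SNHG5 (CKI minus Baituling 0.77 ± 0.04). The exon junction gene MAGOH was lower in Kushen than in Baituling (-0.87 ± 0.05), and the nuclear exosome nuclease EXOSC10 (-0.72 ± 0.05) and the decapping gene DCP1B (-0.72 ± 0.16) were lower in CKI than in Baituling. All 4 were called by edgeR.

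Regulators of TOP mRNAs gave 2 higher and 7 lower of 11 in CKI minus Baituling (4 and 3 with library totals), with a median of -0.18. Kushen minus Baituling gave 2 higher and 8 lower (3 and 4 with library totals), with a median of -0.20, and CKI minus Kushen 4 higher and 3 lower (4 and 1), with a median of -0.03. All genes gave 39.1% higher and 37% lower, 35.6% and 36.1%, and 19.6% and 20.2% in the order given. EIF4EBP1, the translation inhibitor that mTOR phosphorylates, was at 116, 123 and 129 CPM in CKI, 119, 128 and 137 in Kushen, and 263, 236 and 242 in Baituling, with CKI minus Baituling at -1.01 ± 0.06. PABPC1, the poly(A)-binding protein and itself a TOP mRNA, differed by -0.70 ± 0.04 and LARP1, which binds TOP sequences, by -0.53 ± 0.05 in the same contrast. The mTOR complex gene RPTOR was lower in Kushen than in Baituling (-0.51 ± 0.05).

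Genes with a pyrimidine run were then set beside those without. Among tested genes with a RefSeq promoter, the 2547 with the run had a median CKI minus Baituling difference of -0.02 and the 8830 without it 0.04. In CKI minus Kushen the medians were -0.01 and 0.01, and in Kushen minus Baituling -0.01 and 0.02. Of the genes with the run, edgeR called 24.3% lower and 17.6% higher in CKI than in Kushen, beside 19.7% and 20.3% of those without. The shares were 40.1% lower and 35.6% higher beside 37.3% and 39.9% in CKI minus Baituling, and 38.6% and 33.2% beside 36.3% and 35.8% in Kushen minus Baituling. These are descriptions, and the difference between the sets was not tested.

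The 9 hosts were then described by their mean profile over the 9 libraries. Pearson's r of each host with that profile, which contains the host itself, was 0.977 for GAS5, 0.968 for SNHG1, 0.967 for ZFAS1, 0.957 for SNHG7, 0.947 for SNHG5, 0.914 for SNHG8, 0.894 for SNHG16, 0.786 for SNHG15 and 0.168 for SNHG12. Among 10061 other genes whose log2 CPM averaged at least 3, the 5 most like it were CSTPP1 (r = 0.996), RBMS3 (0.98996), HNRNPDL (0.98977), RRAGB (0.98976) and TAF1D (0.989). HNRNPDL, which encodes an RNA-binding protein, was at 180, 186 and 183 CPM in CKI, 228, 201 and 209 in Kushen, and 370, 357 and 374 in Baituling. These correlations share 9 libraries in 3 treatments and describe the order of the treatments.

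Several hosts overlap a gene on the opposite strand, and without strand information reads of the overlap cannot be told apart. ZFAS1 shares exon sequence with ZNFX1, which starts 248 bases away and was higher in CKI than in Kushen (0.31 ± 0.04) and than in Baituling (0.21 ± 0.04), unlike ZFAS1. SLC3A2, which starts 51 bases from SNHG1 and encodes an amino acid transporter subunit, was higher in CKI than in Baituling (0.71 ± 0.04), where SNHG1 was lower. ZBTB37, 800 bases from GAS5, was also higher in CKI than in Baituling (0.69 ± 0.14). DIPK1B (SNHG7), PRSS12 (SNHG8) and TRNAU1AP (SNHG12) share exon sequence with the host in brackets, and ST6GALNAC2 overlaps SNHG16 without shared exon sequence. Their CKI minus Baituling differences were -1.18 ± 0.11, -1.08 ± 0.06, -0.20 ± 0.07 and -1.48 ± 0.13, all in the direction of the host other than TRNAU1AP, whose host did not pass the test. PRSS12 held 607 to 1054 counts against 684 to 1125 for SNHG8. ZNFX1 held 1549 to 2603 against 1576 to 3523 for ZFAS1, and TRNAU1AP 543 to 750 against 359 to 543 for SNHG12. PRSS12 was also lower in CKI than in Kushen (-0.37 ± 0.06) and in Kushen than in Baituling (-0.71 ± 0.06), the order of SNHG8. The levels of SNHG8, ZFAS1 and SNHG12, and the differences computed from them, are therefore uncertain. GAS5-AS1, on the opposite strand of GAS5, held only 1 to 16 counts. SNHG5 and SNHG15 had no neighbour on the opposite strand.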

How the data were processed

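RNA of 9 libraries of treated MDA-MB-231 cells was sequenced. The authors trimmed reads with Trim Galore 0.3.7, aligned them with STAR 2.5.3a to hg19 and deposited raw gene counts, without normalization. The counting program and annotation are not given in the sources used here. Columns were assigned by treatment initial and replicate number. Of 24566 rows, 222 repeated an Ensembl gene with identical counts and were dropped, leaving 24344 genes. GENCODE v44lift37 (GRCh37, the same assembly as hg19) named 24224, and 99 more were named by RefSeq.

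filterByExpr (minimum count 10, total 15) kept 14195 genes. All libraries entered 1 edgeR 4.0.16 quasi-likelihood fit (R 4.3.3) on treatment with TMM factors of 0.877 to 1.10. Tests were two-sided, with Benjamini-Hochberg adjustment across every gene tested and a threshold of 0.05. An exact permutation test of 3 against 3 cannot go below 0.1. The common biological coefficient of variation was 4.53%. Replicate pairs differed by a chi-square per gene of 1.70 to 6.85, so none was a repeat deposit, and p-values measure the spread between these libraries. The fit was tested on simulated counts with the same variation for every gene and few changed genes. That simulation did not test the scaling between treatments.

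Alternatives were library totals, upper quartile scaling, DESeq2 1.42.0, other filters, rows as deposited, the compared treatments alone, a replicate block and leaving out each library. Members and lists were chosen with earlier results of these data known. Named genes were all hosts, at most 4 called genes per list by size of change over the 3 contrasts, the 5 genes most like the mean profile of the hosts, and opposite-strand neighbours, of which 1 is not reported here. EIF4A1, RPL17, HIST1H1E, the U3 genes and genes in the closing section were named after their values were seen. Promoter and snoRNA sequences are from RefSeq (GRCh38.p14) and from the GRCh37 genome.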

Additional observations from a re-analysis of the deposited data

How the results depend on the processing

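The counts of called hosts, 5, 8 and 8 for CKI against Kushen, CKI against Baituling and Kushen against Baituling, were the same when any library was left out and with the replicate block. The median log2 differences of the hosts then ranged from -0.12 to -0.08, from -0.82 to -0.72 and from -0.65 to -0.50, the last value without Kushen replicate 2, and hosts past a log2 change of 1 stayed at 0, 2 and 2. Scaling moved the medians most. With library totals they were -0.024, -0.50 and -0.41, and a log2 change of 1 was passed by 0 hosts for CKI and 1 for Kushen, each against Baituling. With upper quartile scaling 1 host passed it in CKI against Baituling, and the medians were -0.71 in that contrast and -0.55 in Kushen against Baituling.

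Over 153 values of single hosts per contrast (9 hosts, 17 alternatives), 12, 5 and 9 changed sign, all of them in SNHG12, SNHG1 or ZFAS1 and in differences that had not passed the test. SNHG12 in CKI minus Kushen was 0.07 with library totals, 0.00010 with upper quartile scaling, 0.0094 with at least 10 counts in every library, 2.93e-06 with the replicate block, 0.0033 with only the compared treatments and -0.079 to 0.081 without a library. In CKI minus Baituling it was 0.28, 0.067 and 0.039 for the first 3 of these and -0.088 to 0.051 without a library. In Kushen minus Baituling it was 0.21, 0.067 and 0.030, then 0.015 with only the compared treatments, 0.0090 with rows as deposited and -0.086 to 0.074 without a library. SNHG1 in CKI minus Kushen was -0.0042 with DESeq2 and ranged from -0.11 (without Kushen replicate 2) to 0.10 without a library. ZFAS1 in the same contrast ranged from -0.0068 (without Kushen replicate 2) to 0.084. GAS5 lost its call with library totals in both contrasts with Kushen.

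Replicate numbers did not pair the libraries: deviations of same-numbered libraries correlated at -0.075 to 0.12, with 1 of 9 pairs over 0.1, and a library correlated best with its own number in 2 of 18 comparisons. The replicate block gave 5356, 10656 and 10043 calls over all genes against 5652, 10802 and 10168 without it. With at least 10 counts in every library, 102, 1808 and 1415 genes passed a log2 change of 1, against 270, 2715 and 2162. The cause of these changes was not tested. Counting error was largest for SNHG12 and SNHG15, the hosts with the fewest counts. List counts under the alternatives were added after seeing the data.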

Other observations

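Some noncoding hosts outside the 9 followed another order. These were picked after their values were seen. SNHG17 had a log2 difference of 0.86 ± 0.08 for CKI minus Kushen (edgeR adjusted p 1.2e-07) and was lower in Kushen than in Baituling (-0.82). CKI minus Baituling was 0.04, so that Kushen was the lowest of the 3 treatments, as for SNHG15. SNHG3 had the full order of SNHG15, Kushen below CKI and CKI below Baituling. It was at 0.36 for CKI minus Kushen, -0.36 for CKI minus Baituling and -0.72 for Kushen minus Baituling, all called by edgeR. SNHG18 was higher in CKI than in Baituling, by 1.02.

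The hosted snoRNAs with rows in the table stayed near the floor of counting. SNORD99, inside SNHG12, had 24, 15 and 16 counts in CKI, 14, 8 and 16 in Kushen and 16, 14 and 9 in Baituling, with overlapping libraries. SNORD1B, inside SNHG16, had 0 to 3 counts. No fold was computed for them.

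Core decay factors differed among themselves. UPF2, an adaptor of nonsense-mediated decay, was higher in CKI than in Baituling by 0.54 and SMG1, the kinase of UPF1, by 0.54, while UPF1, the decay helicase, was lower by -0.31. CKI minus Kushen was 0.45 for UPF3B. These 4 genes were also picked after their values were seen.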
